A study of Mus musculus with 5 samples.

Results

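The MHC class II presentation genes described here are H2-Aa, H2-Ab1 and H2-Eb1, which encode class II chains, Cd74, which encodes the invariant chain, and H2-DMa, which encodes a chain of the peptide exchange factor. They were taken by gene symbol as every probe set whose single annotated symbol is 1 of these 5 genes. The array holds 8 such probe sets among 20393 with a single symbol, for 5 of 12393 genes: 3 for H2-Ab1, 2 for H2-Aa and 1 each for H2-Eb1, H2-DMa and Cd74. Liver RNA of C57B/L mice was measured on 5 oligonucleotide arrays, 1 per group, each made from pooled livers. All mice were aged 8 weeks and had 2 weeks of maintenance before their feed began. The groups were standard chow for 1 week, atherogenic diet for 1 week, standard chow for 10 weeks, atherogenic diet for 10 weeks, and atherogenic diet for 10 weeks with atorvastatin over the last 3 weeks. An atherogenic diet is a feed that raises blood cholesterol, and atorvastatin inhibits the rate-limiting enzyme of cholesterol synthesis. The diet group at 1 week carries a chow label in its source name but is named as diet in its title and protocols, which were followed. No genotype or treatment beyond feed and drug is given, the number of livers per pool is not given in the sources used here, and a pool hides the spread between mice.

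Class II molecules are surface proteins that show peptides from engulfed material to helper T cells. An alpha chain and a beta chain pair in the endoplasmic reticulum with the invariant chain, which blocks the groove and directs the complex to endosomes. There proteases degrade the invariant chain, and the DM exchange factor replaces its last fragment with other peptides. In liver the genes are known to be expressed mainly by dendritic cells, B cells, Kupffer cells and part of the sinusoidal endothelium rather than by hepatocytes. Transcription of the class II chains, Cd74 and the DM genes is known to depend on the coactivator encoded by Ciita, which interferon gamma induces, acting through promoter elements called the X and Y boxes. In cultured human cells statins are known to lower interferon-induced class II expression.

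In the gene order of assembly GRCm38.p6, H2-Aa lies between H2-Ab1 and H2-Eb1 on chromosome 17 and H2-DMa is next to H2-DMb2 on the same chromosome. The promoters of H2-Aa and H2-Eb1 are shown because the chains are encoded side by side and the Y box is the element through which they are known to be controlled together. The sequences are those of RefSeq on GRCm38.p6, from 250 bases before to 50 bases after the gene start, at chr17:34287774-34288073 on the minus strand for H2-Aa and chr17:34305617-34305916 on the plus strand for H2-Eb1. Capitals mark CTGATTGG, the core of the Y box, and TGACGTCA, the cyclic AMP response element, of which the X box holds a variant.
H2-Aa: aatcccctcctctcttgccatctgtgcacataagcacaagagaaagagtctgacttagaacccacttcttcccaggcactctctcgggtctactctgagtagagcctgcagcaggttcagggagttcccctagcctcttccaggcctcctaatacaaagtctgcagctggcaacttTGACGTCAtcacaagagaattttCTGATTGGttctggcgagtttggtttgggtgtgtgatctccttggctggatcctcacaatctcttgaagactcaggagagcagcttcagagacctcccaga
H2-Eb1: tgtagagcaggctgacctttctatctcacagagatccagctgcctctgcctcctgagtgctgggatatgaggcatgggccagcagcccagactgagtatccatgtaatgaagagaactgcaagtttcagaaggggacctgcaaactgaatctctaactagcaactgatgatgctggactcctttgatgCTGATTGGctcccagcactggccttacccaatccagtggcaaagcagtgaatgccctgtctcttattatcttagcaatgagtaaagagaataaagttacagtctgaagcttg
The Y box core began 51 bases before the start in H2-Aa and 62 bases before it in H2-Eb1, and the cyclic AMP response element began 74 bases before the start in H2-Aa. Counting both strands, CTGATTGG was present in 4.1% of 32851 promoter windows of this length and TGACGTCA in 1.79%. Of the windows of the class I presentation genes listed below, 7 of 14 held CTGATTGG. Of those of other class II pathway genes, 2 of 21 did. TGACGTCA was in 0 windows of either list. The 2 windows listed for H2-DMa held neither. No promoter window was available for H2-Ab1, and Cd74 was left out of the motif search by choice. Whether H2-Ab1 or Cd74 holds either motif was therefore not tested.

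With 1 array per group there is no replicate spread, no test was made, and the number of arrays limits the precision. Signals are MAS5 values in arbitrary units, scaled to a common trimmed mean, and signals below 138.8 were set to that floor before log2 ratios were taken. The pair of chow arrays, which share their feed but differ in time and so in age, gave a yardstick: 95% of probe sets lay within 1.84-fold to 2.17-fold between them, depending on the signal quartile. Between the diet arrays of 1 and 10 weeks that limit was 2.01-fold to 2.55-fold. The 10-week chow array stood apart in its spike-in controls, with a geometric mean 5.47 times that on chow at 1 week, while the diet and atorvastatin arrays had 1.11 to 2.03 times. The atorvastatin array stood apart in the 18S ribosomal RNA controls, where its geometric mean was 13944 and the other arrays had 437 to 2185. Medians of the members and of several lists that rest on the 10-week chow array are also given with chow at 1 week as reference. Hepatocyte markers such as albumin were far above the floor on every array, with Alb signals from 28032 to 69204.

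Among the class II chains the highest signal lay on the 10-week diet array for the brightest probe set of each gene. H2-Aa, the alpha chain of the A molecule, had signals in probe set 1435290_x_at of 1388 on chow at 1 week, 1321 on the diet at 1 week, 1676 on chow at 10 weeks, 2661 on the diet at 10 weeks and 2109 with atorvastatin. Both long-diet arrays were thus above all other arrays, and the highest value was 2.01 times the lowest. The other H2-Aa probe set, 1452431_s_at, had 309, 263, 244, 283 and 620 in the same order of groups. Here the atorvastatin array alone was high and the other 4 lay close together.

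H2-Ab1, the beta chain of the A molecule, had signals in 1450648_s_at of 591 on chow at 1 week, 602 on the diet at 1 week, 676 on chow at 10 weeks, 880 on the diet at 10 weeks and 868 with atorvastatin. Probe set 1451721_a_at had 493, 344, 304, 615 and 490, again highest on the diet at 10 weeks but lowest on chow at 10 weeks. Probe set 1425477_x_at had 177, 52.3, 78.0, 216 and 236 and was below the floor on the diet at 1 week and on chow at 10 weeks. All 3 probe sets were thus higher on both long-diet arrays than on chow at 10 weeks, but only 1450648_s_at put the 1-week chow array lowest. H2-Eb1, the beta chain of the E molecule, had signals of 982, 777, 969, 1270 and 890 in the same order. Its 10-week diet array was highest, while the atorvastatin array lay below both chow arrays.

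H2-Ea, which encodes the alpha chain that would pair with H2-Eb1, was below the floor in all 3 of its probe sets on all 5 arrays, with signals between 8.3 and 104.6. Most C57BL strains are known to carry the b haplotype, in which the E alpha gene is not transcribed. The haplotype of the mice used here is not given. In the gene next in the pathway, H2-DMa, signals were 176 on chow at 1 week, 185 on the diet at 1 week, 295 on chow at 10 weeks, 231 on the diet at 10 weeks and 267 with atorvastatin. All of these lay near the floor, with the 1-week arrays low and the 10-week chow array highest.

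Cd74, the invariant chain, whose gene lies apart from the others on chromosome 18, had signals of 1722 on chow at 1 week, 1188 on the diet at 1 week, 1287 on chow at 10 weeks, 1139 on the diet at 10 weeks and 1768 with atorvastatin. The 1-week chow and atorvastatin arrays were high and the remaining 3 lay together. The 10-week diet array, highest for the chains, was lowest for Cd74.

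**Figure D1:**
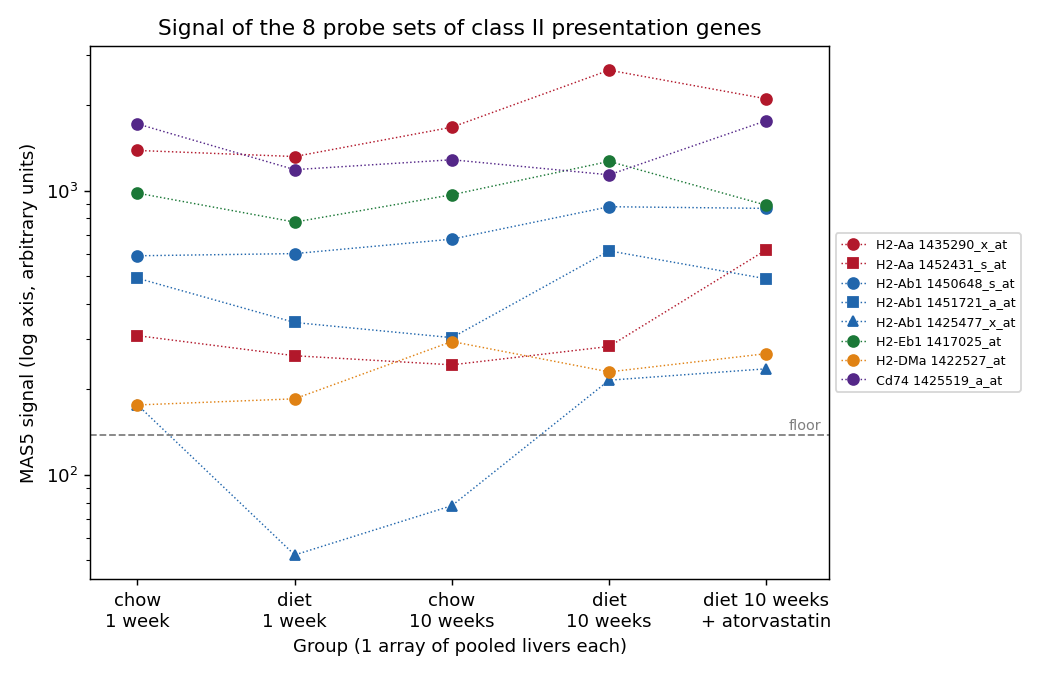
MAS5 signal (log axis, arbitrary units) of each of the 8 probe sets on the array of each group; dotted lines only join points of a probe set, and the dashed line is the floor of 138.8. Heights of different probe sets cannot be compared; H2-Aa 1435290_x_at reaches 2661 on the 10-week diet array, where Cd74 has its lowest value of 1139.

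With the arrays ordered by signal, 32 steps separate neighbours over the 8 probe sets, and 0 of them exceeded the 95% limit of the chow pair for its signal quartile. The step nearest to that limit was the log2 difference of 1.00 between atorvastatin and chow at 1 week in H2-Aa 1452431_s_at. Orders between neighbouring groups are therefore given as a description only.

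At 10 weeks the class II chains had higher signals on the diet than on chow, while Cd74 and H2-DMa had slightly lower ones. Log2 ratios of diet over chow were 0.67 and 0.21 for the probe sets of H2-Aa, 0.38 and 1.01 for 1450648_s_at and 1451721_a_at of H2-Ab1, and 0.39 for H2-Eb1. The remaining H2-Ab1 probe set was at least 1.55-fold higher, its chow signal being below the floor. Cd74 had -0.18 and H2-DMa -0.35. Of 8 probe sets 1 was past 2-fold, 1451721_a_at, and it was also the 1 probe set outside the limit of the chow pair; among all probe sets measured 7.07% were past 2-fold in either direction. The median over the 8 was 0.38, against 0.05 over all 13853 probe sets measured, whose middle 50% lay between -0.31 and 0.37. Against the 1-week chow array 0 of 8 were past 2-fold and the median was 0.34. There H2-Aa 1435290_x_at had 0.94, H2-Ab1 1450648_s_at 0.57 and 1451721_a_at 0.32, H2-Eb1 0.37 and Cd74 -0.60, while H2-DMa (0.39) and H2-Aa 1452431_s_at (-0.13) changed sign.

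At 1 week the direction was the other way for most of these probe sets. Log2 ratios of diet over chow were -0.07 and -0.23 for H2-Aa, 0.03 and -0.52 for 1450648_s_at and 1451721_a_at of H2-Ab1, and -0.34 for H2-Eb1. Probe set 1425477_x_at of H2-Ab1 was at least 1.27-fold lower. Cd74 had -0.53 and H2-DMa 0.07. None of the 8 was past 2-fold or outside the limit of the chow pair, where 2.94% of all probe sets were past 2-fold. The median was -0.29 against -0.03 over all probe sets. The diet comparisons of 1 and 10 weeks share no array, and 6 of 8 probe sets had opposite signs in them, H2-Ab1 1450648_s_at and Cd74 being the exceptions. Of all 12449 probe sets measured at both times, 54.2% had opposite signs.

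Between both diet arrays, 10 weeks over 1 week, 7 of 8 probe sets were positive, with a median of 0.59 against 0.10 over all probe sets. H2-Aa 1435290_x_at was past 2-fold (log2 1.01), where 10.2% of all probe sets were; the other chain probe sets above the floor on both arrays ran from 0.11 to 0.84, H2-DMa had 0.32 and Cd74 -0.06. H2-Ab1 1425477_x_at was at least 1.55-fold higher. These arrays differ in age as well as in time on the diet. Between the chow arrays, 10 weeks over 1 week, the probe sets above the floor on both arrays ran from -0.70 for H2-Ab1 1451721_a_at to 0.74 for H2-DMa, and 1425477_x_at was at least 1.27-fold lower. The median of the 8 was -0.18 and 0 were past 2-fold, where 4.63% of all probe sets were. The 10-week chow array enters both this pair and the diet comparison at 10 weeks.

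With atorvastatin on the diet the class II chains differed in sign relative to the diet alone, while Cd74 had a higher signal. H2-Eb1 had a log2 ratio of -0.51, H2-Aa 1435290_x_at -0.33, and the H2-Ab1 probe sets -0.33, -0.02 and 0.13. Cd74 had 0.63, with a signal of 1768 against 1139, and H2-DMa 0.21. The 1 of 8 past 2-fold was H2-Aa 1452431_s_at (log2 1.13), where 4.49% of all probe sets were, and its limit in the chow pair is 1.12. The median was 0.06 against -0.03 over all probe sets. Taking the brightest probe set of each gene, the log2 ratio of Cd74 lay 0.92 above the mean of H2-Aa, H2-Ab1 and H2-Eb1; for the diet over chow at 10 weeks it lay 0.66 below (a difference of -0.66). Both of these comparisons use the 10-week diet array, where the chains were high and Cd74 low. The same difference was -0.41 for the diet at 1 week and -0.57 for the chow pair, so the ratio of Cd74 lay below that of the chains there too. Those comparisons share the 1-week chow array, where Cd74 was high. For atorvastatin over chow at 10 weeks the difference was 0.27, and for the diet pair -0.82.

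Compared with chow at 10 weeks, the atorvastatin array had positive log2 ratios in 6 of 8 probe sets, with a median of 0.41 against 0.02. H2-Aa had 0.33 and 1.34, the latter being the 1 past 2-fold, where 5.9% of all probe sets were. H2-Ab1 had 0.36 and 0.69, with 1425477_x_at at least 1.70-fold higher, Cd74 had 0.46, H2-Eb1 -0.12 and H2-DMa -0.14. Against the 1-week chow array the median was 0.49; H2-Aa 1452431_s_at had 1.00, Cd74 0.04, H2-Ab1 1451721_a_at -0.01 and H2-DMa 0.60, the last 2 with their sign changed.

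**Figure D2:**
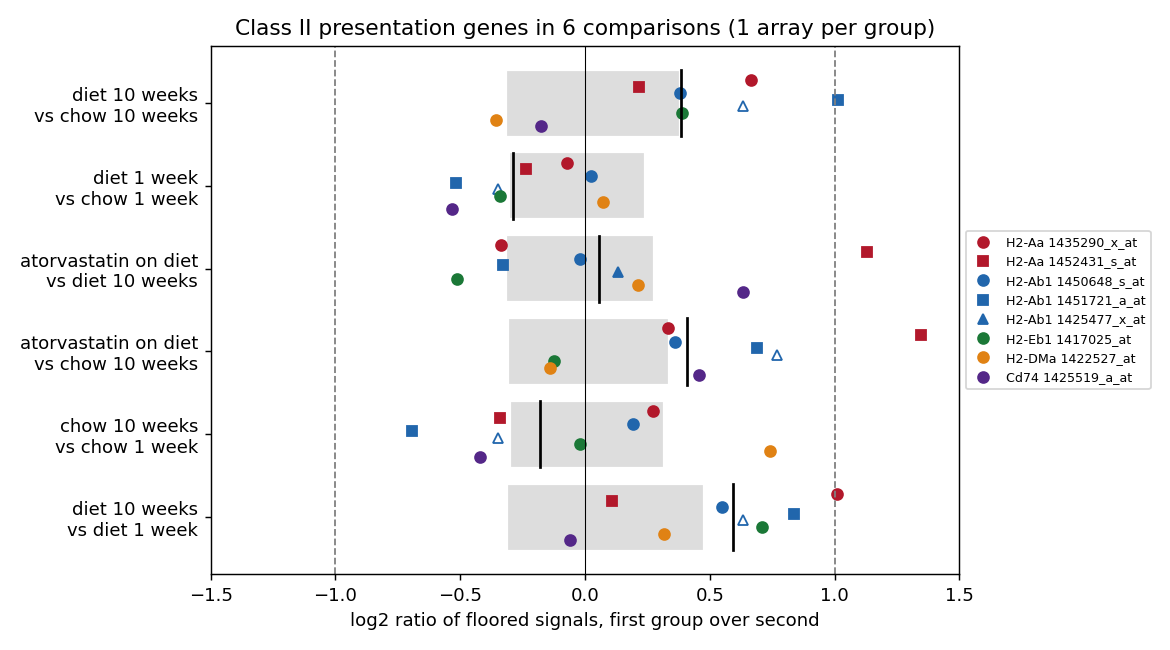
Log2 ratio of floored signals of each probe set (points; hollow where 1 array is at the floor, so that the ratio is a bound) in 6 comparisons, with the median of the 8 (black bar), the middle 50% of all probe sets measured (grey) and 2-fold (dashed). Most points lie inside 2-fold, with 1 of 8 past it in 4 comparisons and 0 of 8 in the diet comparison at 1 week and in the chow pair.

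The probe sets of H2-Aa disagreed for atorvastatin over the diet by 1.47 on the log2 scale, from -0.33 to 1.13. Over 3069 genes with several measured probe sets the median of this range was 0.48, and 4.5% of those genes had a range as large. Both H2-Aa probe sets are of the x and s types, which by design can also bind transcripts of other genes. In the diet comparison at 10 weeks the ranges were 0.45 for H2-Aa and 0.64 for H2-Ab1, against a median of 0.56 over all such genes.

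By their brightest probe set, other genes of class II presentation did not pass 2-fold in any of the 6 comparisons, with 18 of 23 listed genes named on the array and 13 to 16 measured per comparison. Among their dimmer probe sets, those past 2-fold were of genes for subunits of NF-Y, the factor that binds the Y box. For the diet over chow at 10 weeks they were 2 of 23 measured, where 7.07% of all probe sets were past 2-fold. Nfyb 1419267_at had 159.5 on chow and 321.5 on the diet at 10 weeks (log2 1.01). Nfya 1422082_a_at had 321.4 on the diet at 10 weeks. On chow at 10 weeks and on the diet at 1 week it was below the floor, at least 2.32-fold lower. With atorvastatin it had 149.7 (log2 -1.10 against the diet). Another dimmer Nfya probe set went the other way. It had 148.4 on chow at 10 weeks, 38.6 on the diet at 10 weeks, below the floor, and 220.7 with atorvastatin. By brightest probe set, log2 ratios of diet over chow at 10 weeks were 0.26 for Nfya and 0.54 for Nfyb. Nfyc, an NF-Y subunit gene named after its values were seen, had -0.26. Counted over genes by their brightest probe set, the share past 2-fold was 6.7% for the diet at 10 weeks, 2.31% for the diet at 1 week, 4.34% for atorvastatin over the diet, 5.56% for atorvastatin over chow, 4.43% for the chow pair and 8.54% for the diet pair. The list medians were -0.03, -0.26, 0.17, 0.21, -0.02 and 0.11 in that order, against medians over all genes of 0.05, -0.03, -0.03, 0.03, 0.01 and 0.11. With chow at 1 week as reference the list median for the diet at 10 weeks was -0.12. Ciita had signals of 135 on chow at 1 week, 158 on the diet at 1 week, 205 on chow at 10 weeks, 154 on the diet at 10 weeks and 209 with atorvastatin in its brighter probe set. These lay close to the floor, with the 10-week diet array below the 10-week chow array (log2 -0.42), opposite in sign to the chains. Its other probe set was above the floor on 1 of 5 arrays, the diet at 10 weeks, with 168. H2-DMb2, a beta chain of the DM factor, had 243, 150, 138, 184 and 201, so both long-diet arrays lay above the 10-week chow array and below the 1-week chow array. H2-Oa, a chain of the DM inhibitor, stayed between 62.6 and 178. The enzymes of the list that act in the endosome, named after their values were seen, differed in sign. For the diet over chow at 10 weeks the log2 ratios were 0.72 for the thiol reductase Ifi30, -0.12 for Lgmn, an asparagine endopeptidase, 0.24 for Ctss, the cathepsin that trims the invariant chain, and -0.55 for the cathepsin Ctsl. For atorvastatin over the diet they were -0.30 for Ifi30, 0.98 for Lgmn, 0.47 for Ctss and 0.28 for Ctsl.

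Class I presentation, which shows peptides made inside the cell, had 13 of 15 listed genes measured, counted by their brightest probe set. On the diet at 10 weeks 8 were positive and 0 past 2-fold, and the median was 0.20; with chow at 1 week as reference 13 of 13 were positive (median 0.48). With atorvastatin over the diet 12 of 13 were negative, with a median of -0.28, and Psmb9, an immunoproteasome subunit, was past 2-fold lower (-1.05, from 651 to 315). In the chow pair Tap1, a peptide transporter subunit, was past 2-fold higher (1.17). The class I heavy chains H2-K1 and H2-D1 had 0.10 and 0.37 for the diet at 10 weeks, and beta-2 microglobulin B2m -0.05. Dimmer probe sets past 2-fold in that comparison were B2m 1449289_a_at (-1.04, from 25634 to 12509) and 1433806_x_at of Calr, a chaperone gene (1.21, from 4002 to 9265). They were 2 of 28 probe sets measured, where 7.07% of all probe sets were past 2-fold. Among the dimmer sets of the heavy chains, H2-K1 1427746_x_at (1.81) and H2-D1 1450170_x_at (1.32) were past 2-fold for the diet at 1 week. They were 2 of 27 measured, where 2.94% of all probe sets were. In the chow pair H2-K1 1427746_x_at had 1.30 and H2-D1 1452544_x_at was at least 2.26-fold lower. With Tap1 that made 3 of 28 measured, where 4.63% of all probe sets were past 2-fold. The peptide transporter subunit Tap2 had -0.56. In the diet pair all 13 were positive, with a median of 0.53 against 0.11 over all genes.

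Of the interferon gamma signalling list, 11 of 12 genes were named and 10 measured. Ifng itself was below the floor on all 5 arrays, from 9.5 to 78.4. The medians were 0.16 for the diet at 10 weeks, -0.19 for the diet at 1 week and 0.08 for atorvastatin over the diet. With chow at 1 week as reference the first of these turned to -0.10, with 4 of 10 positive. By brightest probe set Socs1, a feedback inhibitor of the pathway, was the gene past 2-fold in 2 comparisons, at -1.35 for the diet over chow at 10 weeks and at least 2.89-fold higher in the chow pair. Its signal was 401 on the 10-week chow array and between 92.5 and 211 on the others. The receptor genes Ifngr1 and Ifngr2 had -0.90 and 0.48 for the diet at 10 weeks, and the kinase gene Jak1 0.02. Dimmer probe sets also passed 2-fold. Irf8 1448452_at, of a transcription factor gene, had 320.7 on chow at 10 weeks and was at least 2.31-fold lower on the diet. With Socs1 that made 2 of 14 probe sets measured, where 7.07% of all probe sets were past 2-fold. Ifngr2 1423557_at had -1.03 for the diet at 1 week and 1.11 in the diet pair, where 1421065_at of the kinase gene Jak2 was at least 2.11-fold higher. These were 1 of 15 measured at 1 week (2.94% of all probe sets) and 2 of 15 in the diet pair (10.2% of all).

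In a bulk liver sample, more cells of a type and more RNA per cell cannot be told apart, so markers of the cells that carry class II were set beside the members. Dendritic cell markers, of which 6 of 8 were ever above the floor and Ccr7 and Clec10a never, were positive in 6 of 6 measured for the diet at 10 weeks (median 0.55). Their summed signal was 1252 on chow at 1 week, 907 on the diet at 1 week, 1072 on chow at 10 weeks, 1644 on the diet at 10 weeks and 1382 with atorvastatin. This sum was highest on the 10-week diet array and lowest on the 1-week diet array, as was the signal of H2-Aa 1435290_x_at and of H2-Eb1. The summed signal of the class I list had the same extremes, 88538 and 60219. H2-Ab1 1450648_s_at and 1451721_a_at were also highest on the 10-week diet array but lowest on a chow array. Single dendritic markers differed, with Flt3 (388) and Cd209a (295) highest on chow at 1 week. Against the 1-week chow array, a reference chosen for the lists after seeing the data, 4 of 6 dendritic markers were positive (median 0.53). B cell markers, with 10 of 11 ever above the floor and Pax5 never, summed to 2212, 2184, 2443, 2789 and 3136, highest with atorvastatin. For the diet at 10 weeks 0 of 9 measured B cell markers were past 2-fold, where 6.7% of all genes were. Their median was 0.17 (0.09 with chow at 1 week as reference).

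Macrophage and Kupffer cell markers were ever above the floor in 14 of 14, with 13 above it on chow and 13 on the diet at 10 weeks. Their signals summed to 17496 on chow and 15553 on the diet at 1 week. At 10 weeks the sums were 11515 on chow, 19812 on the diet and 29405 with atorvastatin. For the diet at 10 weeks 13 of 13 were positive, with a median of 0.73. Of them 4 were past 2-fold, Adgre1, Cd5l, Clec4f and Tyrobp, where 6.7% of all genes were. With atorvastatin over chow at 10 weeks 11 of 14 were past 2-fold (median 1.26), where 5.56% of all genes were. Against the 1-week chow array 0 of 14 were past 2-fold higher and 1 lower for the diet at 10 weeks (median 0.12). With atorvastatin 3 of 14 were past 2-fold higher (median 0.60). The share over all genes was not computed for that reference. The summed signal of the macrophage and Kupffer cell markers was highest on the atorvastatin array. So were Cd74, H2-Aa 1452431_s_at, H2-Ab1 1425477_x_at and the B cell sum. It was lowest on chow at 10 weeks, as were H2-Aa 1452431_s_at and H2-Ab1 1451721_a_at but not Cd74. Sinusoidal endothelial markers summed to 8151, 5739, 5449, 7936 and 7598, with 10 of 10 ever above the floor. For the diet over chow at 10 weeks 7 of 10 were positive (median 0.45). Of them Lyve1, Oit3 and Cdh5 were past 2-fold, where 6.7% of all genes were. With chow at 1 week as reference 5 of 10 were positive (median -0.10). For atorvastatin over the diet 5 of 10 were positive (median -0.08). There Oit3 and Cdh5 were past 2-fold lower, where 4.34% of all genes were past 2-fold. In the chow pair 0 of 10 were positive (median -0.47). Hepatocyte markers were highest on chow at 10 weeks, with a sum of 343066 against 176666 to 237591 on the other arrays, and 9 of 9 were negative for the diet at 10 weeks (median -0.48), against 3 of 9 with the 1-week chow array as reference (median 0.13). T and NK cell markers were largely below the floor, with 4 of 10 never above it, among them Cd4 and Cd3d. Stellate cell markers had a median of 0.23 for the diet at 10 weeks (0.11 with chow at 1 week as reference) with 6 of 7 ever above the floor, and of 4 cholangiocyte markers 1, Krt19, was. What part these cell markers have in the values of the members was not tested.

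**Figure D3:**
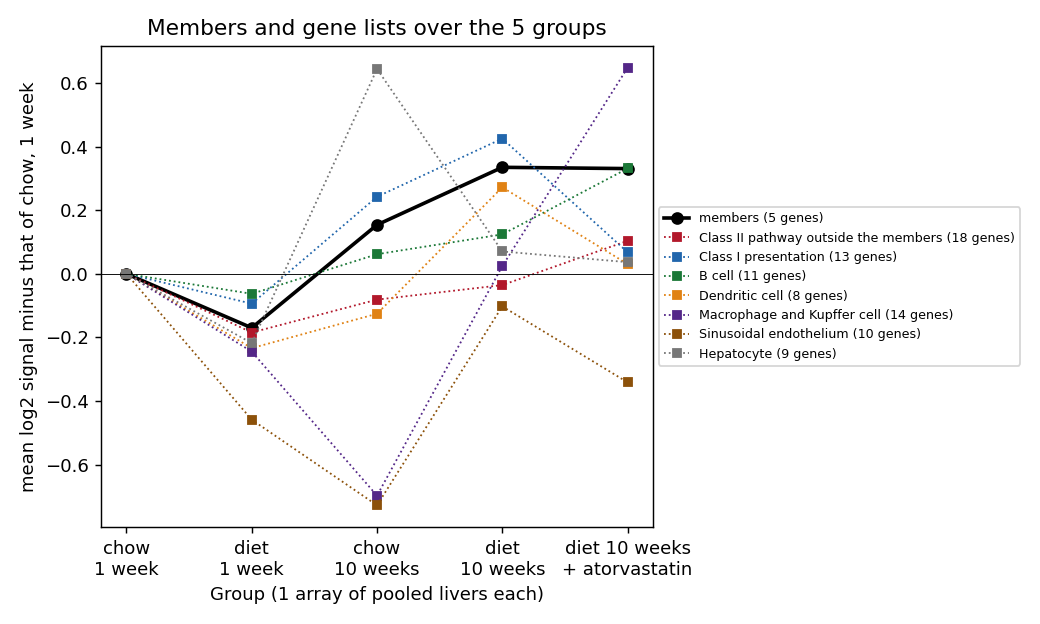
Mean log2 signal of the members (brightest probe set of 5 genes) and of gene lists on each group's array, minus that of chow at 1 week; dotted lines only join points of a list. The members lie at 0.34 and 0.33 on the long-diet arrays, while macrophage and Kupffer cell markers lie at -0.70 on chow at 10 weeks and 0.65 with atorvastatin.

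The centred mean log2 profile of the 5 genes spanned 0.51 over the 5 arrays, from the diet at 1 week to the diet at 10 weeks. Within it H2-Ab1 lay nearest to the mean, with a root mean square difference of 0.10, and Cd74 farthest with 0.31. Of 6716 other genes above the floor on all arrays, with at least 50% of that span, the nearest in profile were Wdr55 (root mean square difference 0.03), Aif1 (0.03), Msra (0.03), Foxk2 (0.04), Cope (0.04) and Fibp (0.04). Each had its lowest signal on the diet at 1 week and its highest on a long-diet array; Aif1, an actin-binding protein gene known as a macrophage marker, had 224, 206, 242, 288 and 289. These 6 lay nearer to the mean profile than any of the 5 genes did. With 5 arrays and so many candidates this likeness is a description only.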

How the data were processed

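Per the file and its labels, the authors deposited a linear-scale intensity for each of 22690 probe sets on each array. MAS5 is named in the submitters' processing notes, and the 2% trimmed mean was 500.2 on each array as tested on the table; its settings are not given in those notes. Arrays were brought to the same 2% trimmed mean, which changed little. Signals below 138.8, the 40th percentile over all arrays, were raised to that floor before log2 was taken (Python 3.11.15, numpy 2.4.6, pandas 2.3.3). Probe sets with 1 gene symbol in the platform annotation were used (20393, with 691 of several symbols and 1606 unlisted left out). A ratio counts as measured if either array is above the floor, and as a bound if the other is not. A fold of 2 was the rule for calls. Lists use the brightest probe set of a gene. Their dimmer probe sets past 2-fold were added after seeing the data for the class II, class I and interferon lists. With 1 array per group no test is possible. The ratio step was tested on simulated data.

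All probe sets of the 5 genes are named, and of the other class II, class I and interferon lists every gene past 2-fold and up to 4 more in list order; genes named outside that rule are marked in the text. Members and lists were chosen with earlier results of these data known. Alternatives were other scalings (limma 3.58.1 in R 4.3.3), floors, a pseudocount, probe set choices, fold rules and reference arrays. No sequencing depth applies, and no batch is given.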

Additional observations from a re-analysis of the deposited data

Results flagged for a closer look

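H2-Ab1 1451721_a_at had a log2 ratio of diet over chow of 1.01 at 10 weeks and of -0.52 at 1 week, a difference of 1.53 between feeding times with opposite signs. It was flagged because the signs were opposite and the difference was at least 2-fold. With 1 array per group the difference between the times was not tested, and the ratio at 1 week lay inside the limit of the chow pair. Over all probe sets measured at both times, 15.0% had opposite signs and a difference of at least 2-fold, so such a pattern is common on these arrays. Its signal on the 10-week chow array was 304, its lowest, against 493 on the 1-week chow array.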

How the results depend on the processing

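The median of the members kept its sign under 10 of 10 alternatives for the diet at 10 weeks (0.11 to 0.42), 9 of 9 for the diet at 1 week (-0.43 to -0.07), 10 of 10 for atorvastatin over chow (0.17 to 0.49) and 8 of 8 for the diet pair (0.51 to 0.63). For atorvastatin over the diet it kept its sign in 5 of 8 (-0.17 to 0.09) and for the chow pair in 7 of 8 (-0.22 to 0.19). The alternatives here and below include leaving out the rescaling, which left the medians unchanged because the 2% trimmed mean was already 500.2 on each array. A median counts as moved beyond 0.17, which is the SD of the chow pair's ratios (0.49) divided by the square root of 8. This is a working limit and not an error of the median. Some of the 8 probe sets share a gene, and 8 was kept where fewer remained. Without x and s probe sets, which leaves 4 probe sets and none of H2-Aa, it moved to 0.11 for the diet at 10 weeks and 0.17 for atorvastatin over chow. With the brightest probe set per gene it moved to -0.071 for the diet at 1 week and 0.19 for the chow pair. Raising the floor to the 60th percentile moved it to -0.17 for atorvastatin over the diet.

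Counts past the fold rule, of 1 at 2-fold, were as follows. For the diet over chow at 10 weeks the count was 0 with cyclic loess, with a pseudocount, with the brightest probe sets, with the mean of both chow arrays, with the 1-week chow array and at 3-fold, 2 after lowering the floor to the 20th percentile and 3 at 1.5-fold. For atorvastatin over the diet it was 0 with a pseudocount, without x and s probe sets, with the brightest probe sets and at 3-fold, and 2 at 1.5-fold. For atorvastatin over chow it was 0 under the same 4 settings, 2 with the lower floor and 3 at 1.5-fold. For the diet pair it was 0 with a pseudocount, without x and s probe sets and at 3-fold, 2 with the lower floor and 4 at 1.5-fold. Where the count was 0 at 2-fold, it was 1 for the diet at 1 week and 1 for the chow pair with the lower floor, and 2 for the chow pair at 1.5-fold. Of 319 values of single probe sets 309 moved by less than 0.49, and 0 past 2-fold changed sign; H2-Ab1 1425477_x_at, below the floor on 2 arrays, accounts for the 5 that moved with the lower floor. The other moves were of H2-DMa and H2-Ab1 1451721_a_at with the 1-week chow array as reference, and of H2-DMa in the chow pair. Changing the chow reference shifts a ratio by its chow pair ratio, which was 0.74 for H2-DMa and -0.70 for 1451721_a_at. In the chow pair H2-DMa moved from 0.74 to 0.06 with the floor at the 60th percentile. No paired analysis was possible because each group has 1 array. Signals near the floor limit H2-DMa, Ciita and most lymphocyte markers.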
